A study of Mus musculus with 12 samples.

Results

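The hepatocyte transcription factors followed here are Hnf4a, Onecut1, Foxa1, Foxa2, Foxa3, Cebpa, Cebpb, Prox1 and Nr5a2. Their probe sets, the groups of short oligonucleotides that each give 1 signal on an Affymetrix array, were taken by gene symbol from the platform annotation. The 9 genes had 17 of the 22690 probe sets in the deposited table, and no probe set with several symbols named one of them. Hnf4a and Nr5a2 had 4 probe sets each, Onecut1 and Cebpb 2 each, and the other genes 1 each.

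Liver RNA had been measured in 12 female mice of the inbred C57BL/6 strain, with 1 array for each. Testosterone mice had received 0.9 mg of the hormone in 100 µl sesame oil under the skin, 2 injections per week for 3 weeks, and vehicle mice the oil alone. Livers came from 3 testosterone and 3 vehicle mice at the end of treatment, and from 3 testosterone and 3 vehicle mice after a period of withdrawal. The question in the labels is how the hormone acts on expression in the female liver in the short and the long term. The ages of the mice are not given in the labels. The titles give 12 weeks of withdrawal and the design text 3 weeks, and this was not settled here. Any difference in age between mice after withdrawal and mice at the end of treatment cannot be told apart from time since the injections. All groups shared the strain, the sex and the oil injections, and no mouse was left uninjected. The livers were whole tissue, in which fewer cells of a type and less RNA per cell cannot be told apart.

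Liver-enriched transcription factors act as a network. HNF4A, the FOXA proteins, ONECUT1 and the C/EBP proteins bind near one another at the promoters and enhancers of genes for plasma proteins, lipid transport and metabolism, and regulate each other's genes. FOXA proteins can bind nucleosomal DNA, HNF4A and NR5A2 are nuclear receptors, and PROX1 can repress genes by binding to both of these receptors. Several of the factors are also used in the pancreas, among them Foxa2, Onecut1, Nr5a2 and Hnf4a.

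Upstream sequences are shown first for Onecut1, which showed the largest increase, Foxa2, which was called in opposite directions at the 2 times, Prox1, which fell, and Hnf4a, whose probe sets moved apart. The upstream window of Foxa1 lies within the annotated gene and is not shown. The sequences are from RefSeq on mouse build GRCm38.p6, 5′ to 3′ on the gene's strand. Those of Onecut1, Foxa2 and Prox1 end at the base before an annotated start, and that of Hnf4a ends where the annotated gene begins, which leaves out the last 46 bases before the start from which its positions are counted (163506857). Onecut1 (chr9:74861671-74861920, plus strand), Foxa2 (chr2:148046970-148047219, minus strand, the most upstream of 3 starts), Prox1 (chr1:190170828-190171077, minus strand, the upstream of 2 starts) and Hnf4a (chr2:163506607-163506810, plus strand, the upstream of 2 starts) are given with motif matches in capitals.
Onecut1: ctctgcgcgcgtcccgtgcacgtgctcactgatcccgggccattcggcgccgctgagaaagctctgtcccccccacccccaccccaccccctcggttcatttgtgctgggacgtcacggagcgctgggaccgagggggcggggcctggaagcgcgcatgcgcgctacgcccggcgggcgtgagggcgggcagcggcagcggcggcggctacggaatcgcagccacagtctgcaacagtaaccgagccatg
Foxa2: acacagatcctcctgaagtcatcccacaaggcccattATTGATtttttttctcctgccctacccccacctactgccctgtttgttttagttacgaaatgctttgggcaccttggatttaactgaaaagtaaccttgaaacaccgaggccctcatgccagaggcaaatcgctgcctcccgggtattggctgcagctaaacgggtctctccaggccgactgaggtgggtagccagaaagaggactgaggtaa
Prox1: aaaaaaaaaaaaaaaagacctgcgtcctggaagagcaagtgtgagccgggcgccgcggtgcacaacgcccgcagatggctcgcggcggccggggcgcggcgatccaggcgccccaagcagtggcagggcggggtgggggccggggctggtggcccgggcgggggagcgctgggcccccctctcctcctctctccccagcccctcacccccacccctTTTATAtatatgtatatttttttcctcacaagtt
Hnf4a: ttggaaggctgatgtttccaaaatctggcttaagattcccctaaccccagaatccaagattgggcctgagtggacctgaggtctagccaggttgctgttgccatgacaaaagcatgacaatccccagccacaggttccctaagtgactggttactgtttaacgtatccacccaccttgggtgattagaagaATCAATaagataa
The capitals mark ATTGAT, the core letters that ONECUT proteins bind, at position -213 from the start in Foxa2, its reverse complement ATCAAT at -59 in Hnf4a, and TTTATA, the reverse complement of the TATA box letters TATAAA, at -34 in Prox1. Motifs were searched in the 250 bases before each start. Among 32851 such RefSeq windows, 6.72% held ATTGAT and 12.4% TATAAA on either strand. The printed windows held none of the other motifs searched on both strands, among them the FOXA core TGTTTAC (3.17% of windows), the C/EBP letters TTGCNNAA (9.56%) and AGAACA, a core bound by androgen and glucocorticoid receptors (16.1%). No printed match overlapped another. All 9 genes had a promoter in the table. TATAAA also lay in the windows of Foxa3, at -36, and Cebpa, at -30, and its reverse complement at -208 from another start of Foxa2 and at -181 from a start of Nr5a2. The Foxa1 window held GTAAACA, the reverse complement of the FOXA letters. Nr5a2, with 2 annotated starts, held AGAACA or its reverse complement in both windows, and a C/EBP match at -243 from 1 of them. These matches describe the letters and show no binding. On the same build the other genes lie at chr12:57540628-57548029 (Foxa1), chr7:19013283-19023539 (Foxa3), chr7:35119293-35121928 (Cebpa), chr2:167688915-167690432 (Cebpb) and chr1:136842562-136960448 (Nr5a2).

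The livers carried the hepatocyte signals their label calls for. Alb, the gene for serum albumin, had a signal between 4510 and 6052 on the 12 arrays, and the summed signal of 18 hepatocyte marker probe sets lay at 80340 to 81800 in testosterone and 78102 to 83389 in vehicle livers when treatment ended. After withdrawal it lay at 82046 to 96562 in testosterone and 75579 to 82952 in vehicle livers, with 3 of the 18 called higher, 12 at an unadjusted p under 0.05 and a median log2 change of 0.21. Arrays of one group correlated at r between 0.979 and 0.989 over all probe sets. Vehicle mouse 2 at the end of treatment stood apart in acute phase genes: Saa1 had a signal of 5042 there, against 379 and 247 in the other vehicle mice. The 3′ to 5′ signal ratio of the actin control, a measure of RNA integrity, averaged 2.11 ± 0.08 in testosterone and 1.52 ± 0.11 in vehicle livers when treatment ended (SD, n = 3 each), with no overlap (exact permutation p = 0.1, two-sided, the smallest that 3 against 3 allows). After withdrawal it averaged 1.62 ± 0.18 in testosterone mice and 1.77 ± 0.15 in vehicle mice (exact permutation p = 0.2). Counts at the end of treatment are therefore also given from a fit that holds this ratio as a term.

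At the end of treatment, 6 probe sets of these factors were higher and 3 lower in testosterone than in vehicle livers, of 16 tested. Onecut1, Foxa1, Foxa2 and Cebpb rose, Prox1 fell, and the probe sets of Hnf4a moved in both directions. Called means an adjusted p under 0.05 in a limma fit over all 12108 probe sets tested, two-sided, with Benjamini-Hochberg adjustment. By that rule 56.2% of the factors' probe sets were called, against 19.4% of all probe sets tested (9.31% higher, 10.1% lower). The factors were chosen with results of these data known, so the larger share describes them and tests nothing. The mice of the 2 groups did not overlap for 12 of the 16, 8 higher and 4 lower, against 38.2% of all tested (20.5% higher, 17.6% lower). The factors' median log2 change was 0.28, against 0.04 over all probe sets tested. With the actin ratio in the fit, none of the 9 calls was kept, all 9 kept their sign, and 5 of the 16 passed at an unadjusted p under 0.05. That fit called 86 of all 12108 probe sets, and the ratio and the treatment are partly the same split at this time, since the ratio did not overlap between the groups. The part of RNA integrity in these changes was not tested. At an unadjusted p under 0.05, 10 of the 16 passed in the fit without the ratio, and 4077 of all 12108 tested did.

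**Figure D1:**
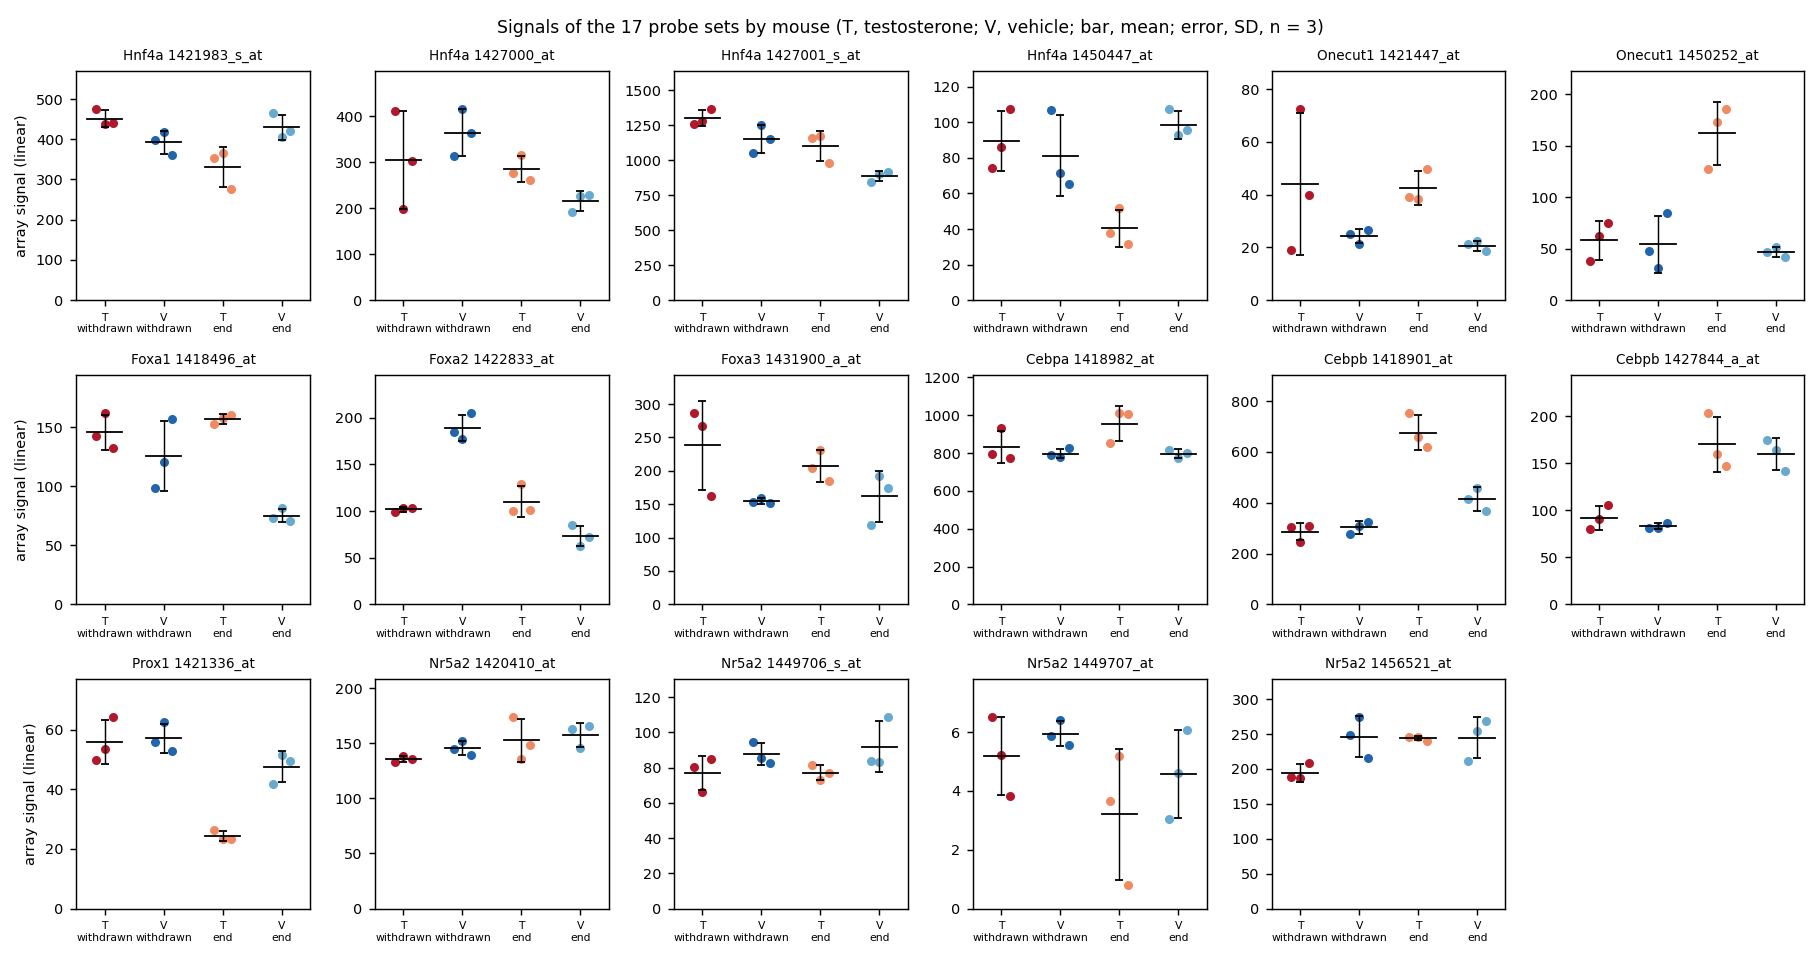
Array signal (linear axis from 0) of each of the 17 probe sets in every mouse; points are mice, bars are means and error bars SD of 3 mice, with T for testosterone and V for vehicle. Onecut1 1450252_at and Foxa1 stand above vehicle in all 3 testosterone mice at the end of treatment, Prox1 stands below it, and Foxa2 stands below vehicle in all 3 testosterone mice after withdrawal.

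Onecut1 showed the largest increase among the factors. It encodes ONECUT1 (also called HNF-6), a cut-homeodomain factor of hepatocytes and bile duct precursors whose liver level in rodents depends on growth hormone. Probe set 1450252_at gave 127, 173 and 186 in testosterone mice when treatment ended and 47.0, 51.7 and 42.4 in vehicle mice. Every testosterone mouse was above every vehicle mouse. The means were 162 ± 30.7 in testosterone and 47.0 ± 4.66 in vehicle livers (SD, n = 3 each), a 3.41-fold increase (log2 change 1.77 ± 0.30 SE, limma adjusted p = 0.00137). By absolute log2 change it ranked at place 91 of all probe sets tested. Probe set 1421447_at gave 39.3, 38.3 and 49.9 in testosterone and 21.2, 22.2 and 18.5 in vehicle mice, again without overlap. It rose 2.05-fold (log2 change 1.03 ± 0.34 SE, limma adjusted p = 0.0432), a call close to the threshold that was lost when any 1 of 10 of the 12 mice was left out, with adjusted p values up to 0.129. Holding the actin ratio in the fit gave changes of 2.02 for 1450252_at and 1.86 for 1421447_at on the log2 scale.

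After withdrawal, Onecut1 1450252_at gave 37.7, 62.2 and 74.8 in testosterone mice and 47.3, 30.9 and 84.9 in vehicle mice, which overlapped (log2 change 0.17 ± 0.30 SE, limma adjusted p = 0.80). The testosterone effect was lower after withdrawal than at the end, by a log2 difference of -1.60 (limma adjusted p = 0.0474). That call was lost when any 1 of 10 of the 12 mice was left out, with an adjusted p of 0.113 without vehicle mouse 3 after withdrawal, and was kept in 1 of 7 other settings. Probe set 1421447_at spread widely in withdrawn testosterone mice, at 19.2, 72.6 and 40.0, against 25.2, 21.3 and 26.4 in withdrawn vehicle mice. Testosterone mouse 1 was the lowest of these 6 and mouse 2 the highest (log2 change 0.65 ± 0.34 SE, limma adjusted p = 0.301). Without testosterone mouse 1 the change was 1.15 and passed the test (limma adjusted p = 0.0109).

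The FOXA genes encode forkhead factors, the pioneer proteins that open chromatin in the liver and other endoderm-derived organs. Foxa1 gave 152, 158 and 160.5 in testosterone mice when treatment ended and 72.7, 81.5 and 71.0 in vehicle mice. The testosterone mice lay close together and well above the vehicle mice. Foxa1 rose 2.09-fold (157 ± 4.11 in testosterone, 75.1 ± 5.62 in vehicle, SD, n = 3 each; log2 change 1.07 ± 0.15 SE, limma adjusted p = 0.000307), and its log2 change was 0.59 with the actin ratio in the fit. After withdrawal Foxa1 gave 142, 162 and 132 in testosterone mice and 98.8, 121 and 157 in vehicle mice. These overlapped (log2 change 0.23 ± 0.15 SE, limma adjusted p = 0.404), and the vehicle mice themselves were higher after withdrawal than at the end, 1.65-fold (log2 change 0.72 ± 0.15 SE, limma adjusted p = 0.00625). The testosterone mice differed little between the times, with a log2 change of -0.11.

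Foxa2 was called in opposite directions at the 2 times. At the end of treatment it gave 99.9, 129 and 101 in testosterone mice and 84.8, 63.0 and 72.6 in vehicle mice, without overlap. It rose 1.50-fold (110.1 ± 16.5 in testosterone, 73.5 ± 10.9 in vehicle, SD, n = 3 each; log2 change 0.58 ± 0.14 SE, limma adjusted p = 0.00887). After withdrawal it gave 99.0, 104 and 103 in testosterone mice and 184, 177 and 205 in vehicle mice. Here every testosterone mouse was below every vehicle mouse, and Foxa2 fell 1.85-fold (102 ± 2.62 in testosterone, 189 ± 14.3 in vehicle; log2 change -0.89 ± 0.14 SE, limma adjusted p = 0.00116). The testosterone effect differed between the times by a log2 value of -1.47 (limma adjusted p = 0.00162). The vehicle mice were 2.59-fold higher after withdrawal than at the end (limma adjusted p = 3.01e-05), and the testosterone mice differed by a log2 of -0.10 between the times (95% interval -0.39 to 0.19). With the actin ratio in the fit the log2 change was 0.75 at the end (adjusted p = 0.325) and -0.93 after withdrawal (adjusted p = 0.00335). Of all probe sets tested, 308 were called at both times, 17 of them in opposite directions, and 9 of these, Foxa2 among them, were higher at the end and lower after withdrawal.

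Foxa3, the other FOXA gene of the liver, did not pass the test in either comparison. At the end of treatment it gave 205, 232 and 184 in testosterone mice and 118, 193 and 174 in vehicle mice, which overlapped (log2 change 0.38 ± 0.20 SE, limma adjusted p = 0.204), and the change was -0.36 in a fit that held the actin ratio. After withdrawal it gave 286, 267 and 162 in testosterone mice and 153, 159 and 152 in vehicle mice. All testosterone mice were above the vehicle mice there, mouse 3 only just (log2 change 0.58 ± 0.20 SE, limma adjusted p = 0.122). Without testosterone mouse 3 the change was 0.84 and passed the test (limma adjusted p = 0.0197). A fit that held the actin ratio gave 0.79 (adjusted p = 0.0458).

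**Figure D2:**
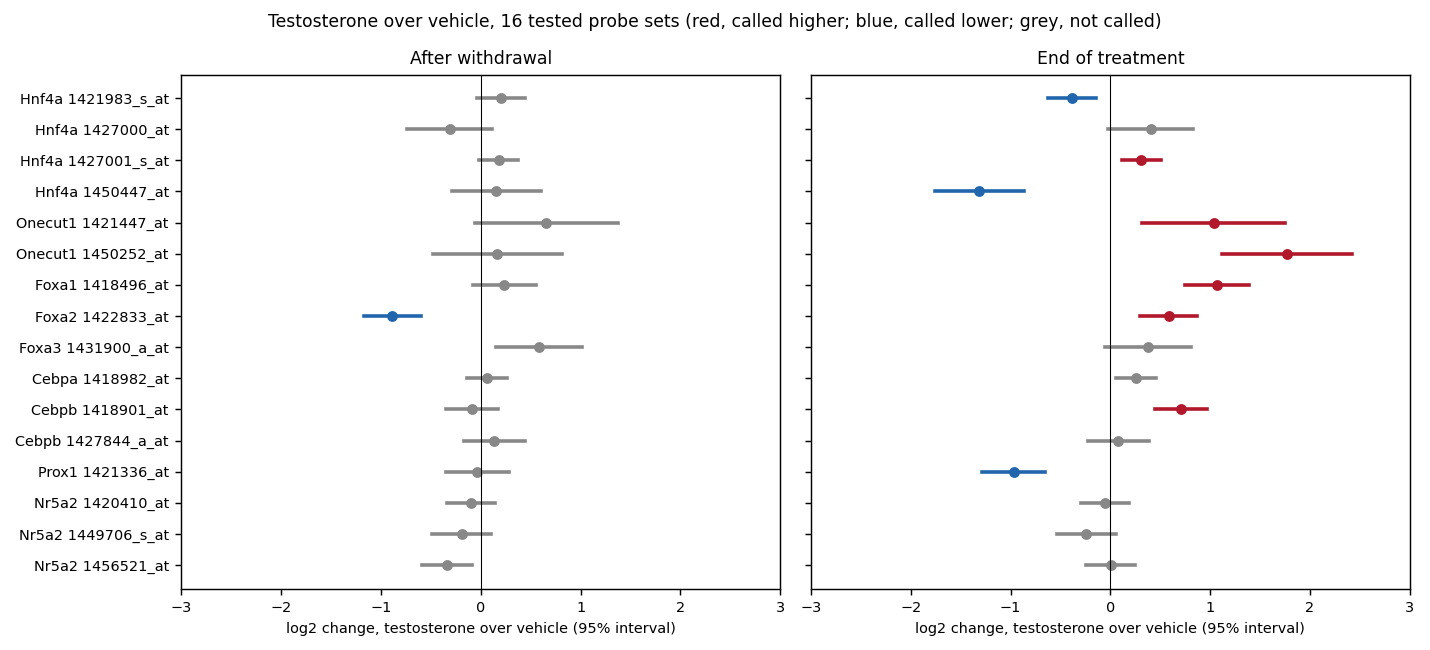
Log2 change, testosterone over vehicle, of the 16 tested probe sets after withdrawal and at the end of treatment; points are estimates and lines 95% intervals of the limma fit, red called higher, blue called lower, grey not called. At the end 9 probe sets are coloured, from -1.31 (Hnf4a 1450447_at) to 1.77 (Onecut1 1450252_at), and after withdrawal only Foxa2 is, at -0.89.

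Hnf4a encodes HNF4A, the nuclear receptor that much of the hepatocyte programme depends on, including apolipoprotein and clotting factor genes. Its 4 probe sets did not move together. At the end of treatment 1450447_at gave 37.8, 51.9 and 31.7 in testosterone mice and 107, 92.7 and 95.8 in vehicle mice, without overlap. It fell 2.48-fold (40.5 ± 10.4 in testosterone, 98.7 ± 7.78 in vehicle, SD, n = 3 each; log2 change -1.31 ± 0.21 SE, limma adjusted p = 0.000752). Probe set 1421983_s_at, which gave 353, 365 and 275 in testosterone mice and 465, 405 and 421 in vehicle mice, also fell, by less. Its change was 1.31-fold (log2 change -0.39 ± 0.11 SE, limma adjusted p = 0.0283).

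The other Hnf4a probe sets lay higher under testosterone at the end of treatment. Probe set 1427001_s_at gave 1158, 1174 and 977 in testosterone mice and 847, 898 and 919 in vehicle mice, without overlap. It rose 1.24-fold (1103 ± 109 in testosterone, 888 ± 37.0 in vehicle; log2 change 0.31 ± 0.09 SE, limma adjusted p = 0.0294). Probe set 1427000_at gave 276, 317 and 262 in testosterone mice and 191, 227 and 229 in vehicle mice. These groups did not overlap either, and the log2 change of 0.40 ± 0.20 SE did not pass the test (limma adjusted p = 0.171). The platform annotation assigns the pair that was higher to one transcript record and the pair that was lower to another. Which Hnf4a transcripts each probe set detects was not analysed here, since no probe sequences were used.

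Because each ratio is taken within an array, the divergence can be read without scaling. The log2 ratio of 1427001_s_at to 1450447_at reached 4.79 ± 0.26 in testosterone and 3.17 ± 0.17 in vehicle livers at the end (SD, n = 3 each), a difference of 1.62 without overlap. The pair was taken because its members had been called in opposite directions, so this is a description with no test. After withdrawal it was 3.88 ± 0.21 in testosterone and 3.86 ± 0.49 in vehicle mice, a difference of 0.02. For 1427001_s_at to 1421983_s_at the difference was 0.70 at the end, without overlap, and -0.03 after withdrawal. A ratio shows unequal change and not which probe set changed. The actin ratio also did not overlap between these groups at the end. With the actin ratio in the fit, the log2 changes at the end were -0.27 for 1421983_s_at, -0.28 for 1427000_at, 0.30 for 1427001_s_at and -0.40 for 1450447_at, so that 1427000_at took the opposite sign and the pair with the larger divergence came closer together.

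Probe sets of 1 gene that are called in opposite directions were uncommon. Of 2630 genes with several tested probe sets, 35 (1.33%) had such a pair at the end of treatment, and 0 after withdrawal. Hnf4a was among the 35, and so was Rxra, another liver-enriched transcription factor gene. The 5 genes with several probe sets made 11 pairs within the factors, 6 of which had opposite signs at the end and 4 after withdrawal. Opposite signs without regard to calls were common, in 46.4% of the 2630 genes at the end and 39.7% after withdrawal. Among the factors' pairs with opposite signs, both probe sets were called only in 2 at the end, both of Hnf4a. The calls of the smaller changes were close to the threshold: 1421983_s_at lost its call at the end without testosterone mouse 3 (log2 change -0.26) or vehicle mouse 1 (-0.33), and 1427001_s_at lost its without testosterone mouse 1 (0.27), testosterone mouse 2 (0.26) or vehicle mouse 1 (0.28). Probe set 1450447_at kept its call whichever mouse was left out.

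After withdrawal none of the Hnf4a probe sets was called between testosterone and vehicle. Probe set 1450447_at gave 74.3, 86.0 and 108 in testosterone mice and 107, 71.2 and 65.4 in vehicle mice, which overlapped (log2 change 0.15). Probe set 1421983_s_at gave 475, 439 and 439 in testosterone mice and 398, 418 and 362 in vehicle mice (log2 change 0.20), and 1427001_s_at gave 1259, 1277 and 1367 in testosterone mice and 1052, 1254 and 1153 in vehicle mice (0.18). Both stood above vehicle in every mouse without passing the test. The spread of 1427000_at was wide in withdrawn testosterone mice, at 412, 199 and 302, against 314, 416 and 363 in vehicle mice (log2 change -0.31). The testosterone effect on 1450447_at was higher after withdrawal than at the end by 1.47 on the log2 scale (limma adjusted p = 0.0170) and that on 1421983_s_at by 0.59 (limma adjusted p = 0.0498). The difference for 1421983_s_at was lost when any 1 of 11 of the 12 mice was left out and was kept in 2 of 6 other settings, and that for 1450447_at was lost without any 1 of 3 mice and was kept in 4 of 6.

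**Figure D3:**
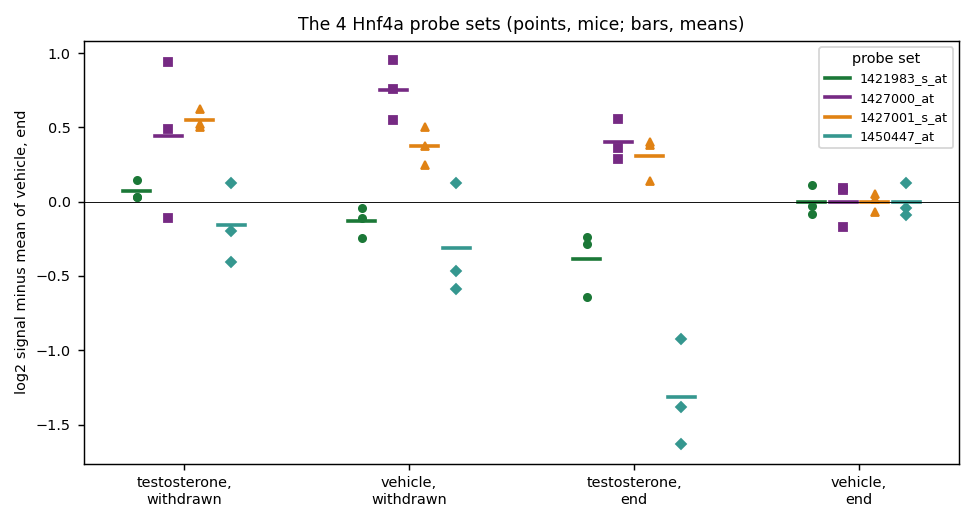
Log2 signal of the 4 Hnf4a probe sets in each mouse, minus the mean of the vehicle mice whose treatment had just ended; points are mice and bars group means of 3 mice. At the end of treatment the means of testosterone mice are spread between -1.31 (1450447_at) and 0.40 (1427000_at).

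The C/EBP genes encode leucine zipper factors. C/EBPα sustains metabolic genes of the resting hepatocyte, and C/EBPβ acts in the acute phase and in regeneration. Cebpa gave 852, 1012 and 1005 in testosterone mice and 818, 772 and 803 in vehicle mice when treatment ended. The groups did not overlap, but the log2 change of 0.26 ± 0.09 SE did not pass the test (limma adjusted p = 0.0646). After withdrawal Cebpa gave 793, 931 and 776 in testosterone mice and 788, 779 and 826 in vehicle mice (log2 change 0.06).

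Cebpb had 2 probe sets that differed in their response at the end of treatment. Probe set 1418901_at gave 753, 657 and 618 in testosterone mice and 417, 460.0 and 368 in vehicle mice, without overlap. It rose 1.63-fold (676 ± 69.3 in testosterone, 415 ± 46.2 in vehicle, SD, n = 3 each; log2 change 0.71 ± 0.12 SE, limma adjusted p = 0.00138), and its log2 change was 0.49 with the actin ratio in the fit. Probe set 1427844_a_at gave 203, 159.7 and 147 in testosterone mice and 175, 163 and 142 in vehicle mice, which overlapped (log2 change 0.08, 95% interval -0.22 to 0.38, limma adjusted p = 0.733). The difference between the 2 probe sets was not tested. After withdrawal 1418901_at gave 306, 246 and 308 in testosterone mice and 276, 308 and 326 in vehicle mice, and 1427844_a_at gave 79.8, 90.9 and 105 in testosterone mice and 81.4, 81.6 and 86.4 in vehicle mice. Neither differed between the treatments by more than the spread (log2 changes -0.09 and 0.14). The testosterone effect on 1418901_at was lower after withdrawal than at the end by a log2 difference of -0.79 (limma adjusted p = 0.0244).

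Prox1 fell at the end of treatment. It encodes a homeodomain protein of hepatocytes and lymphatic endothelium that can repress bile acid synthesis genes by binding to HNF4A and NR5A2. Its signals were 26.2, 23.3 and 23.2 in testosterone mice and 41.8, 51.6 and 49.4 in vehicle mice, without overlap. It fell 1.96-fold (24.2 ± 1.73 in testosterone, 47.6 ± 5.15 in vehicle, SD, n = 3 each; log2 change -0.97 ± 0.15 SE, limma adjusted p = 0.000591), and its log2 change was -0.81 with the actin ratio in the fit. After withdrawal it gave 50.0, 53.4 and 64.1 in testosterone mice and 55.9, 62.4 and 52.7 in vehicle mice, which overlapped (log2 change -0.03, 95% interval -0.35 to 0.28, limma adjusted p = 0.922). The testosterone effect was higher after withdrawal than at the end by 0.94 on the log2 scale (limma adjusted p = 0.0269).

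Nr5a2 encodes LRH-1, the receptor that sets bile acid synthesis genes and, in the pancreas, acinar genes. None of its probe sets passed the test. Probe set 1456521_at gave 245, 245 and 241 in testosterone mice and 212, 254 and 268 in vehicle mice when treatment ended (log2 change 0.00, 95% interval -0.25 to 0.25). After withdrawal it gave 188, 187 and 209 in testosterone mice and 249, 274 and 216 in vehicle mice. All 3 testosterone mice were below the vehicle mice there (log2 change -0.34 ± 0.12 SE, limma adjusted p = 0.121). The other Nr5a2 probe sets also gave small differences. Probe set 1420410_at gave 173, 136 and 148 in testosterone and 162, 145 and 165 in vehicle mice at the end, then 133, 138 and 136 in testosterone and 145, 152 and 139.6 in vehicle mice after withdrawal. Probe set 1449706_s_at gave 81.3, 73.1 and 77.0 in testosterone and 83.8, 83.2 and 109 in vehicle mice at the end, then 80.4, 66.3 and 84.8 in testosterone and 94.5, 85.7 and 82.9 in vehicle mice after withdrawal. Their log2 changes lay between -0.24 and -0.05. Probe set 1449707_at was above the array median on 0 of the 12 arrays and was not tested. Its signals were 3.66, 5.18 and 0.789 in testosterone and 3.05, 4.62 and 6.06 in vehicle mice at the end, and 6.50, 5.22 and 3.84 in testosterone and 5.86, 6.40 and 5.57 in vehicle mice after withdrawal.

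After withdrawal 1 of the 16 probe sets, Foxa2, was called between testosterone and vehicle livers, which is 6.25%, against 4.9% of all 12108 probe sets tested (2.16% higher, 2.73% lower), a share near the background. The mice did not overlap for 6 of the 16, 3 higher and 3 lower, a larger share than the 24% of all tested (10.4% higher, 13.6% lower). At an unadjusted p under 0.05, 3 of the 16 passed, and 2376 of all 12108 tested did, a similar share. The median log2 change was 0.10 over the 16 and -0.03 over all tested. In the direct test of the difference between the times, 7 probe sets were called (43.8%, against 4.77% of all tested, 2.65% higher and 2.12% lower), 3 with a higher and 4 with a lower testosterone effect after withdrawal. All 7 had been called at the end. Of the 7, Foxa2 kept the call whichever single mouse was left out, and the number called fell to 1 without vehicle mouse 3 after withdrawal. The differences for Foxa1, Cebpb 1418901_at and Prox1 were lost when any 1 of 9, 5 and 6 of the 12 mice was left out, in that order. With the actin ratio in the fit, none of these differences was called, and 3 of the 16 passed at an unadjusted p under 0.05.

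**Figure D4:**
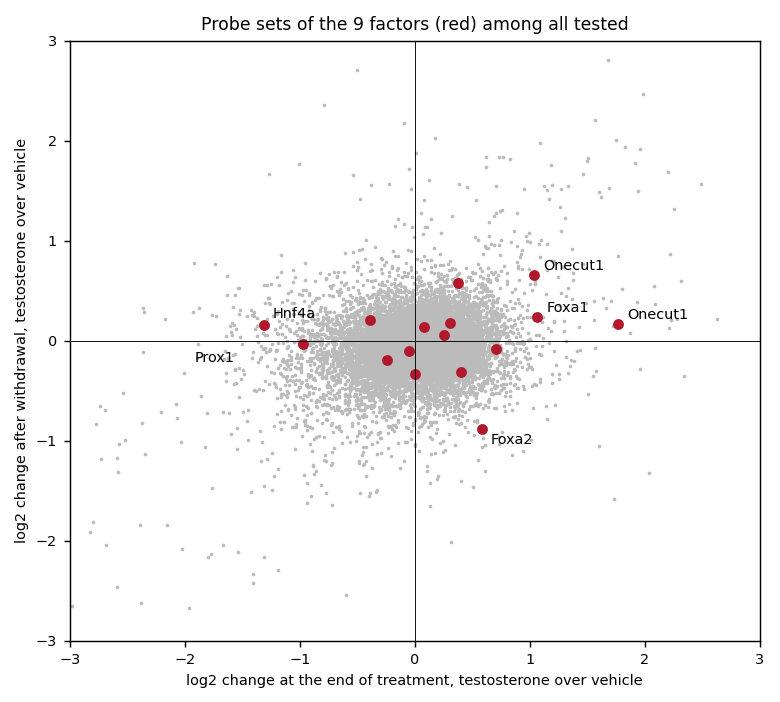
Log2 change, testosterone over vehicle, after withdrawal (vertical) against the end of treatment (horizontal) for the probe sets tested; red points are the 16 probe sets of the factors, grey points all others, and 32 probe sets lie outside the plotted range. Foxa2 stands at 0.58 and -0.89, and Onecut1 1450252_at at 1.77 and 0.17.

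The factors also differed between the times within each treatment, which the comparisons above rest on. In vehicle mice 6 of the 16 probe sets were called between withdrawal and the end (37.5%, against 16.4% of all tested, 9.49% higher and 6.95% lower), and 7 did not overlap, 5 higher and 2 lower (34.8% of all tested, 20.5% higher and 14.3% lower). Besides Foxa1 and Foxa2, the Hnf4a probe sets 1427000_at (log2 change 0.75) and 1427001_s_at (0.37) were higher after withdrawal. Both Cebpb probe sets were lower after withdrawal in vehicle mice, by -0.45 for 1418901_at and -0.94 for 1427844_a_at on the log2 scale (limma adjusted p = 0.0225 and 0.000875). In testosterone mice 6 were called (37.5%, against 10.2% of all tested, 5.58% higher and 4.58% lower), and 8 did not overlap, 4 higher and 4 lower (31.1% of all tested, 15.8% higher and 15.3% lower). Cebpb 1418901_at (-1.24, limma adjusted p = 2.06e-05), Cebpb 1427844_a_at (-0.88) and Onecut1 1450252_at (-1.52) were lower after withdrawal. Prox1 (1.20, limma adjusted p = 0.000174) and the Hnf4a probe sets 1450447_at (1.15) and 1421983_s_at (0.46) were higher after withdrawal in these mice. Of the 12 calls between the times, the changes of Cebpb 1427844_a_at in both treatments, of Foxa2 in vehicle mice and of Cebpb 1418901_at in testosterone mice kept their call in every alternative.

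Among other liver-enriched transcription factors, Hhex rose at the end of treatment, the probe sets of Tef differed, and Rxra was called in both directions. Of 29 probe sets tested, 4 were higher and 2 lower in testosterone livers (20.7%, near the 19.4% of all probe sets tested), with a median log2 change of 0.14. Once limma's fit held the actin ratio, 0 of the 29 were called and 0 passed at an unadjusted p under 0.05. Hhex, a homeobox gene of early liver development, rose 2.35-fold (669 ± 59.4 in testosterone, 286 ± 36.2 in vehicle, SD, n = 3 each; limma adjusted p = 0.00290). Tef, a leucine zipper gene under circadian control, fell by its dim probe set 1450184_s_at, to 12.4 ± 11.7 in testosterone livers, against 56.6 ± 17.9 in vehicle livers, with 1 testosterone mouse at the floor (limma adjusted p = 0.00560). Its other probe set, 1424175_at, gave 421 ± 10.7 in testosterone and 429 ± 54.3 in vehicle livers (log2 change -0.02, limma adjusted p = 0.939). Rxra, like Hnf4a, had probe sets called higher and lower at the end. Its 1425762_a_at was lower (log2 change -0.51, limma adjusted p = 0.0467), a call lost without vehicle mouse 2 (adjusted p = 0.0877). Creb3l3 and Xbp1 were the genes called higher after withdrawal, where 2 probe sets were higher and 0 lower (6.9%, against 4.9% of all tested). Both genes were also among those called higher at the end. The cofactors and corepressors of the 9 factors had 0 of 18 probe sets called by limma at the end, with 3 at an unadjusted p under 0.05, and 1 called after withdrawal: Ppargc1a, a coactivator of HNF4A, fell 2.60-fold (8.52 ± 4.35 in testosterone, 20.7 ± 2.95 in vehicle; limma adjusted p = 0.0344). That probe set was dim, beside array medians of 20.0 to 22.4 after withdrawal and a floor of 4.84.

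Genes known as targets of the factors were read from lists that overlap one another. Of 35 tested probe sets of HNF4A-regulated genes, 2 were higher and 6 lower at the end of treatment (22.9%, near the background of 19.4%; median log2 change -0.11). After withdrawal 3 were higher and 2 lower (14.3%, against 4.9% of all tested). The fit that held the actin ratio in limma called 0 at the end, with 12 at an unadjusted p under 0.05 and a median of 0.01. F7, the gene for clotting factor VII, was among the lower ones, at 382 ± 27.1 in testosterone and 650 ± 50.8 in vehicle livers (SD, n = 3 each; log2 change -0.77, limma adjusted p = 0.000143; -0.84 and 0.0781 with the actin ratio). Apoa4, an apolipoprotein gene, was lower too (log2 change -0.87), and Cyp8b1, a bile acid hydroxylase gene, was higher at the end (0.62, a call lost without vehicle mouse 2, adjusted p = 0.101) and after withdrawal (0.92). Of 23 probe sets of NR5A2-regulated genes, 2 were higher and 10 lower at the end (52.2%; median log2 change -0.26), and 2 were higher and 1 lower after withdrawal (13%). Cyp7a1, whose enzyme sets the pace of bile acid synthesis, fell to 178 ± 72.9 in testosterone against 870 ± 102 in vehicle livers by probe set 1422100_at (log2 change -2.36 ± 0.25 SE, limma adjusted p = 3.33e-05), and probe set 1438743_at fell by 1.53 on the log2 scale. Without vehicle mouse 2 at the end, 0 of the NR5A2-regulated probe sets were higher and 9 lower, and limma with the actin ratio as a term called 0, with 10 at an unadjusted p under 0.05 and a median of 0.04. With that term Cyp7a1 1422100_at changed by -1.39.

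Calls in the lists for the other factors came from few genes. ONECUT1-regulated genes had 2 probe sets higher and 4 lower of 13 at the end (46.2%), all from Foxa2, Hnf4a and Cyp7a1. Foxa2 and Hnf4a are themselves among the factors, so their calls repeat those given above. Only the calls of Cyp7a1 came from outside the factors. With the actin ratio in limma's fit 0 were called (5 at an unadjusted p under 0.05). FOXA-regulated genes had 2 lower of 12, both of Cyp7a1, at the end (16.7%, under the 19.4% of all tested). That count was 0 with the actin ratio in limma's fit (6 at an unadjusted p under 0.05). After withdrawal 2 were higher (16.7%, against 4.9% of all tested). C/EBP-regulated genes had 1 of 17 higher at the end (5.88%, also under the background), Tdo2, the tryptophan dioxygenase gene. Tdo2 kept its call with the actin ratio and lost it without vehicle mouse 2 (adjusted p = 0.131). After withdrawal 2 of the 17 were higher (11.8%). Of these, Igfbp1, an insulin-like growth factor binding protein gene, averaged 876 ± 916 in testosterone and 53.4 ± 14.6 in vehicle livers after withdrawal, a log2 change of 3.46 (limma adjusted p = 0.00298) with a spread as large as its mean. Acute phase genes, many of which C/EBPβ regulates, had 0 probe sets higher and 11 lower of 22 at the end (50%), and 0 higher and 4 lower once the actin ratio was held. Their median log2 change was -0.85, -0.35 without vehicle mouse 2 and -0.78 with the actin ratio.

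Markers of some other cell types moved in the same comparison. Of 19 tested probe sets of Kupffer cells and macrophages, 0 were higher and 9 lower in testosterone livers at the end (47.4%, against 19.4% of all tested), and their summed signal was 3823 to 4680 in testosterone and 5151 to 8016 in vehicle mice. Limma called 0 of them once the actin ratio was a term, 0 passed at an unadjusted p under 0.05, and the median log2 change was -0.19, against -0.65 without the ratio. After withdrawal limma called 0, with 1 at an unadjusted p under 0.05 and sums of 3077 to 3399 in testosterone and 2635 to 4826 in vehicle mice. The vehicle mice at the end thus had the highest sums of the 4 groups. In vehicle mice 0 of the 19 were higher and 14 lower after withdrawal than at the end (73.7%, against 16.4% of all tested). In testosterone mice 0 were higher and 2 lower (10.5%, against 10.2% of all tested). Endothelial markers, of interest for Prox1, had 0 probe sets higher and 2 lower of 14 at the end (14.3%, under the 19.4% of all tested). Their sums were 1205 to 1332 in testosterone and 1400.3 to 1708 in vehicle mice. Limma called 0 of these probe sets too with the actin ratio as a term, with 0 at an unadjusted p under 0.05. Duct markers summed to 56.6 to 66.5 in testosterone and 115 to 151 in vehicle mice at the end, and to 60.9 to 114 in testosterone and 162 to 281 in vehicle mice after withdrawal. That gap was in Prom1, the 1 of 9 duct probe sets that was tested. Without it the sums overlapped, at 38.6 to 55.2 in testosterone and 42.3 to 58.5 in vehicle mice at the end, and at 53.4 to 104 in testosterone and 56.6 to 88.4 in vehicle mice after withdrawal. Exocrine pancreas markers, named by the study's title, summed to 368 to 435 in testosterone and 264 to 295 in vehicle mice at the end. After withdrawal they summed to 404 to 3186 in testosterone mice, a wide spread with a median of 1511, and to 179 to 269 in vehicle mice. Of these 25 probe sets 2 were tested, and 1 of the 2, Cela1, was called higher at each time. Of all tested, 19.4% were called at the end and 4.9% after withdrawal. The sum without Cela1 was not taken. The part of these cell types in the factors' changes was not tested.

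Other genes were ranked by how near their pattern over the 12 arrays lay to that of a factor. Likeness was measured as the root mean square difference of log2 signals, each centred on its own mean. For Onecut1 1450252_at the nearest were Gadd45g (0.42), Paqr7 (0.43) and Klf9 (0.45), not small beside its own root mean square of 0.82. Foxa1 was nearest to Slc66a2 (0.17) and Foxa2 to Bcl9l (0.21). Prox1 was nearest to S1pr1 (0.18), Cebpb 1418901_at to Bach1 (0.18) and Hnf4a 1450447_at to Stom (0.19). The root mean squares of these factors' own probe sets were 0.44 for Foxa1, 0.51 for Foxa2, 0.52 for Prox1, 0.51 for Cebpb and 0.57 for Hnf4a. These genes share the arrays with the factors, and the likeness is a description.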

How the data were processed

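Liver RNA of 12 mice had been labelled with biotin and hybridised to 1 array per mouse, 3 mice in each of 4 groups taken from the sample titles. The deposited values are linear array intensities, 1 per probe set, made with GCOS and MAS5 (versions not given) per the submitters' processing notes. All arrays shared a 2% trimmed mean of 100.05 and were not scaled again. The sources used here give no detection calls or scan dates, and the number of arrays limits the precision of every comparison.

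After 64 control probe sets were set aside, 22626 remained, of which 20380 had 1 gene symbol, 691 several and 1555 none. Signals under 4.84, the 25th percentile, were set to that value before log2. Probe sets above their array's median on at least 3 of 12 arrays were tested, 12108 in all. The factors' Nr5a2 probe set 1449707_at failed this filter. Group means were fitted with limma 3.58.1 in R 4.3.3 by lmFit, then eBayes with trended variance, two-sided, with Benjamini-Hochberg adjustment over all probe sets tested and a threshold of 0.05. The code was tested on simulated data. Folds are ratios of geometric means, whereas means ± SD are of the deposited signals.

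The factors, gene lists and naming rule were chosen with earlier results of these data known. The rule names every probe set of the factors. It allows the called probe sets of each list with the largest changes, up to 4, and the 3 nearest patterns of each called factor. Not all that it allows are named here. Signals of different probe sets are on different scales, so levels were not ranked between probe sets, and ratios of 2 probe sets were compared only between groups. Alternatives were an offset of 16 in place of the floor, no filter, median centring, quantile normalization, 1 probe set per gene, the actin ratio as a term, only the 2 groups compared, the replicate number as a block, and leaving out each mouse in turn. List counts without vehicle mouse 2 at the end and with the actin ratio were added after seeing the data.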

Additional observations from a re-analysis of the deposited data

Results flagged for a closer look

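For 7 probe sets the testosterone effect differed between the times in the direct limma test of the difference, given here as the effect after withdrawal minus the effect at the end, on the log2 scale. It was -1.47 for Foxa2, which lay above vehicle in all 3 testosterone mice at the end and below it in all 3 after withdrawal. It was -1.60 for Onecut1 1450252_at, -0.83 for Foxa1 and -0.79 for Cebpb 1418901_at, whose testosterone mice lay above vehicle at the end and overlapped it after withdrawal. It was 0.94 for Prox1 and 1.47 for Hnf4a 1450447_at, whose testosterone mice lay below vehicle at the end and overlapped it after withdrawal. For Hnf4a 1421983_s_at it was 0.59, with the testosterone mice below vehicle at the end and above it after withdrawal, and the call was lost when any 1 of 11 of the 12 mice was left out. None of the 7 was called in the fit that held the actin ratio. No group held more than 3 mice, so no single mouse was tested as standing apart.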

How the results depend on the processing

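No called log2 change of a factor's probe set took the opposite sign under any alternative. Counts below are of probe sets called at the end, after withdrawal, for the difference between the times, between the times in vehicle mice and between the times in testosterone mice, in that order. Without the filter on dim probe sets they were 1509, 341, 63, 1041 and 712 over all probe sets, and the factors' difference count was 1. With quantile normalization that count was 4. With 1 probe set per gene, 1259 were called at the end, 158 for the difference, 1289 in vehicle and 785 in testosterone mice, with fewer tested by construction, and the factors had 3 for the difference and 3 between the times in testosterone mice. With the actin ratio as a term the counts were 86, 360, 1, 277 and 159 over all and 0, 2, 0, 2 and 2 over the factors. Apart from those set by fewer features tested, the cause of these shifts was not tested. Median centring changed the split of higher and lower calls to 1253 and 983 at the end, 333 and 215 after withdrawal, 714 and 1204 in vehicle mice and 504 and 690 in testosterone mice, against 1127 and 1217, 262 and 331, 1149 and 842, and 676 and 554 without it. For the difference it gave 300 higher and 181 lower, against 321 and 257. Quantile normalization gave 1013 higher and 1007 lower in vehicle mice.

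Leaving out 1 mouse at a time gave 1402 to 2585 calls at the end, 302 to 1012 after withdrawal, 108 to 1497 for the difference, 712 to 2197 between the times in vehicle mice and 667 to 1664 in testosterone mice. Over the factors it gave 6 to 10, 1 to 2, 1 to 7, 3 to 6 and 5 to 6. The lowest counts of the factors came without vehicle mouse 1 at the end (end comparison, 6), vehicle mouse 3 after withdrawal (difference, 1) and vehicle mouse 2 after withdrawal or vehicle mouse 1 at the end (times in vehicle mice, 3). Where a group kept 2 mice, they were taken to vary like the other groups.

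Same-numbered mice did not deviate together: over 12 pairs r lay between -0.159 and 0.051. With the replicate block the difference between the times gave 253 calls over all and 2 over the factors, and the other counts stayed within 1.5 times. A fit of only the 2 groups compared gives no value for the difference between the times.

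Precision rests on 3 mice per group, so effects near the threshold, as for Hnf4a 1421983_s_at, Hnf4a 1427001_s_at and Onecut1 1421447_at, can be neither held nor dismissed. For dim probe sets such as Nr5a2 1449707_at the floor hides any change.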

Other observations

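Among the lists not described above, Myc, an immediate early gene of hepatocyte growth, was higher at the end of treatment, at 75.3 ± 16.5 in testosterone and 15.8 ± 7.61 in vehicle livers (SD, n = 3 each; log2 change 2.34, limma adjusted p = 0.000169; 2.85 and 0.0549 with the actin ratio as a term). It was the 1 probe set called of 8 in that list (12.5%, against 19.4% of all tested). After withdrawal the 1 called was Dusp1, a phosphatase gene of the same class, at 510 ± 321 in testosterone and 156 ± 63.5 in vehicle livers (log2 change 1.60, limma adjusted p = 0.0268). Of 18 hepatocyte marker probe sets, 1 was higher and 2 lower at the end (16.7%, against 19.4% of all tested). After withdrawal 3 were higher and 0 lower (16.7%, against 4.9% of all tested). Once the actin ratio was held, 1 was higher and 0 lower at each time. Of 11 stellate cell and matrix probe sets, 1 was higher and 2 lower at the end (27.3%). There limma called 0 with the actin ratio, and 1 passed at an unadjusted p under 0.05. After withdrawal limma called 0 of the 11, with 4 at an unadjusted p under 0.05.

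Prom1, the tested duct marker, was lower at the end, at 13.5 ± 3.93 in testosterone and 83.3 ± 23.6 in vehicle livers (log2 change -2.62; -2.58 with the actin ratio, adjusted p = 0.0682), and after withdrawal, at 7.67 ± 1.60 in testosterone and 139.6 ± 46.9 in vehicle livers (-4.16, limma adjusted p = 3.70e-07). Both testosterone means lay under the medians of those arrays, 20.0 to 22.4, and toward the floor of 4.84, so the size of the fall is imprecise. Cela1, a pancreatic elastase gene and 1 of 2 tested exocrine pancreas probe sets, was higher at the end (log2 change 0.73, limma adjusted p = 0.0331; 0.80 and 0.585 with the actin ratio, and 0.0641 without vehicle mouse 2) and after withdrawal (1.84, limma adjusted p = 0.000136).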
